A study of Mus musculus with 10 samples.

Results

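The genes described here encode alcohol and aldehyde handling enzymes: the alcohol dehydrogenases Adh1, Adh4 and Adh5, the aldehyde dehydrogenases Aldh2, Aldh1a1, Aldh1a7, Aldh1b1, Aldh3a2 and Aldh9a1, and the acetate-activating enzyme Acss1. They are 10 of the 47702 genes in the deposited table and were picked by name for their roles, with earlier results of these data known. The values were FPKM, a count of sequenced fragments scaled to transcript length and to the library's total. The samples were livers of female mice lacking Etnppl in the whole body (knockout, KO) and of wild-type (WT) females, 5 libraries of poly-A RNA per genotype, all after 20 weeks on chow. Strain, age and which exons were targeted are not given in the sources used here.

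Etnppl encodes an enzyme of ethanolamine metabolism that splits phosphoethanolamine into ammonia, phosphate and acetaldehyde. Acetaldehyde is also the first product of ethanol oxidation in the liver, where alcohol dehydrogenases in the cytosol make it and aldehyde dehydrogenases, chiefly the mitochondrial ALDH2, oxidise it to acetate. Acyl-CoA synthetases then join acetate to coenzyme A. The same enzyme families act on retinol and retinaldehyde, formaldehyde, fatty aldehydes and the aldehyde intermediate of carnitine synthesis.

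In KO, Adh1 and Aldh2 transcripts were lower and Aldh1a7 transcript was higher, with no overlap between the 5 KO and the 5 WT libraries. These are 3 of the 9 members that passed a minimum mean of 0.5 FPKM and were tested; the other 6 did not pass a limma adjusted p under 0.05, and Acss1, at a mean of 0.156 FPKM over all libraries, was not tested. Over all 12247 genes tested, 8.54% were called at that threshold (3.98% higher and 4.56% lower in KO, against 1 and 2 of the 9 members), and 8.87% had groups that did not overlap. Those calls were 488 higher and 558 lower. Which direction had more calls depended on the scaling, with 612 higher and 479 lower after quantile normalization, and 349 higher and 691 lower with all libraries scaled to 1 FPKM sum. The median log2 difference was -0.12 over the 9 members and -0.02 over all genes tested. All fold changes are on the log2(FPKM + 0.5) scale, KO minus WT.

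Etnppl itself checked the labels. Its level was 17.72 to 26.43 FPKM in KO libraries, against 43.32 to 108.39 FPKM in WT libraries, so that KO held 33.7% of the WT level (log2 difference -1.49, SE 0.23, limma adjusted p = 0.005). Depth relative to the average library, estimated from step sizes in 262 low genes, ranged from 0.903 to 1.11 and averaged 0.954 in KO and 1.05 in WT libraries (two-sided exact permutation p = 0.048). The absolute number of reads is not given in the sources used here. Spearman correlations of libraries across genes were 0.977 to 0.988 within a genotype and 0.974 to 0.983 between genotypes. The hepatocyte markers Alb, Ttr, Apoa1, Apoa2, Tat, Cps1, Serpina1c and Fgb summed to between 73810 and 79290 FPKM in KO and between 67040 and 73250 FPKM in WT.

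Aldh1a1 and Aldh1a7 are the most alike of the genes described here, and their start regions are shown because only Aldh1a7 was called. Both lie on chromosome 19 of mm10, Aldh1a1 on the plus strand from 20492715 to 20643465 and Aldh1a7 on the minus strand from 20692953 to 20727562, 49.5 kb apart. The main coding transcript of each has 13 exons and 1506 coding bases with the stop codon, and 91.6% of the aligned coding bases were identical. RefSeq gave 2 start windows for Aldh1a1 (GRCm38.p6), at 20492333 to 20492632 and, inside the gene, at 20601718 to 20602017. Only the latter is shown. Its 150 bases that end 50 bases after the RefSeq start differed from those of Aldh1a7 at 8 positions, an identity of 94.7%. Capitals mark the differing bases.
Aldh1a1, chr19:20601868-20602017, plus strand: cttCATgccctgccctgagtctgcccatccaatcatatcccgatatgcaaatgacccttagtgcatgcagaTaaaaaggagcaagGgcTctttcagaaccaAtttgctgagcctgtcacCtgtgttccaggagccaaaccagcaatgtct
Aldh1a7, chr19:20727507-20727656, minus strand: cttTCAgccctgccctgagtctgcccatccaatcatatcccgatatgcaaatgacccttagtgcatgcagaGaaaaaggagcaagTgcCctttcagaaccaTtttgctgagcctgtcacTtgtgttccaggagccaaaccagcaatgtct
Both stretches hold the octamer ATGCAAAT at the same place, starting at position -56 from the RefSeq start. Searched on both strands, ATGCAAAT occurred in 1.74% of 32851 RefSeq windows of 300 bases (250 before to 50 after a start). Both also hold CCAAT, starting at position -72, which 37.4% of windows hold. Of the printed stretches, that of Aldh1a1 has a further CCAAT at position -2, at one of the differing bases. The 300-base window of Aldh1a7 has a further CCAAT at position -137 and TATAAA at position -244. In the 150 bases further upstream, 76 bases of each gene had no identical partner in the alignment.

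Adh1, the member with the largest fall, is shown for the same region. Its RefSeq window held CACGTG, a form of the E-box, which occurs in 7.15% of windows. Other forms of the E-box were neither searched for nor marked. The other motifs searched on both strands were TATAAA, then CCAAT and then ATGCAAAT, and none of them was found in this window. The capitals mark CACGTG, starting at base 5 of the RefSeq transcript. The GENCODE transcript begins 91 bases earlier.
Adh1, chr3:138277485-138277634, plus strand: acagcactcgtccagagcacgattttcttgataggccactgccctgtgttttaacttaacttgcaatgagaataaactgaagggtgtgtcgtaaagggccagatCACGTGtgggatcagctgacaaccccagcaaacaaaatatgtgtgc
RefSeq windows were found for 9 of the 10 members. CACGTG was also in that of Aldh3a2, a member that was not called.

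**Figure D1:**
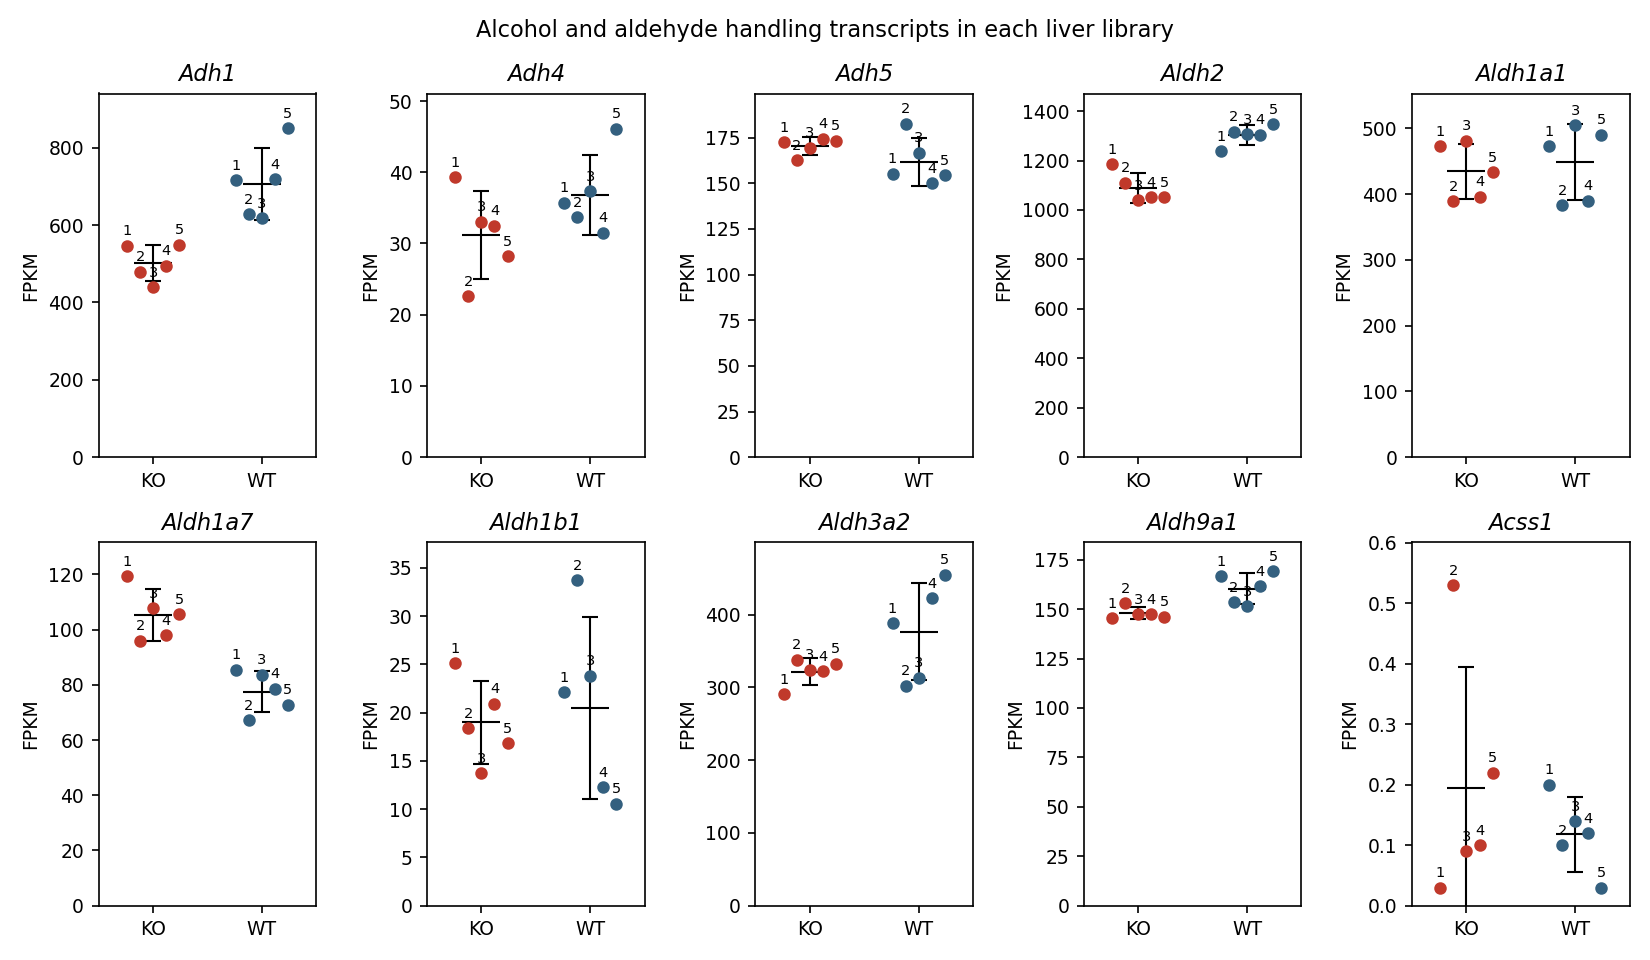
FPKM of each of the 10 genes (y axes from 0, 1 panel per gene) in the 5 KO libraries (red, left) and the 5 WT libraries (blue, right). Numbers are replicate numbers, and black bars are the mean ± SD of 5 libraries; Adh1, Aldh2 and Aldh1a7 are the panels in which KO and WT points do not overlap.

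Adh1, the class I alcohol dehydrogenase that carries out most hepatic ethanol oxidation and also oxidises retinol, fell in KO. It measured 546.58, 479.19, 439.49, 494.37 and 548.77 FPKM in KO 1 to 5, against 715.6, 627.2, 617.58, 719.12 and 849.76 FPKM in WT 1 to 5. The highest KO library lay 68.8 FPKM below the lowest WT library. Its mean was 502 ± 46.5 FPKM in KO and 706 ± 93.5 FPKM in WT (SD, n = 5 each), so that KO held 71.1% of the WT level. Its log2 difference of -0.49 had an SE of 0.09 (limma adjusted p = 0.010). The call held whichever library was left out, with log2 differences from -0.53 to -0.42 and adjusted p up to 0.029. In bulk liver, fewer cells of a type and less RNA per cell cannot be told apart, here and in the results below.

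Adh4, the class II enzyme, which takes longer-chain alcohols and retinol, did not pass the test. It measured 22.63 to 39.27 FPKM in KO and 31.51 to 46.1 FPKM in WT, with 2 of 5 KO libraries below every WT library. The log2 difference was -0.25 (95% limma interval -0.56 to 0.05, adjusted p = 0.29). A fall of the size seen for Adh1 lies inside that interval.

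Adh5, the class III enzyme that oxidises formaldehyde bound to glutathione, did not pass either, and its level was steady. It measured 162.65 to 174.56 FPKM in KO and 150.21 to 182.77 FPKM in WT, and its log2 difference was 0.08 (95% limma interval -0.05 to 0.20, adjusted p = 0.44). Its coefficient of variation was 2.80% in KO and 8.14% in WT.

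Because FPKM is relative to a library's total, Adh1 was also read against its neighbours within each library. Of 7 ratios of members tested, the Adh1 to Adh5 ratio was 1.55 ± 0.12 in KO and 2.11 ± 0.28 in WT on the log2 scale (SD, n = 5 each), a difference of -0.56 with no overlap between genotypes (exact permutation test, two-sided, p = 0.0079, adjusted over the 7 ratios 0.028). That p is the smallest that exchanging the genotype labels can give. The Adh1 to Adh4 ratio was 4.01 in KO and 4.24 in WT, a difference of -0.24 that did not pass (exact p = 0.16, adjusted 0.22), and the Adh4 to Adh5 ratio did not pass either (difference -0.33, exact p = 0.087, adjusted 0.15). Adh1 made up 71.2 ± 1.84% of the summed FPKM of Adh1, Adh4 and Adh5 in KO and 77.8 ± 2.91% in WT (SD, n = 5 each). Leaving out 1 library raised the adjusted p of the Adh1 to Adh5 ratio to 0.056, or to 0.037 without KO 5. With any library left out, 5 libraries against 4 give no p under 0.016. The adjustment also depends on how many ratios sit that low, and without KO 5 the Aldh2 to Adh1 ratio did too (adjusted p = 0.037). Without 1 library the Adh1 to Adh5 difference ranged from -0.65 to -0.48.

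**Figure D2:**
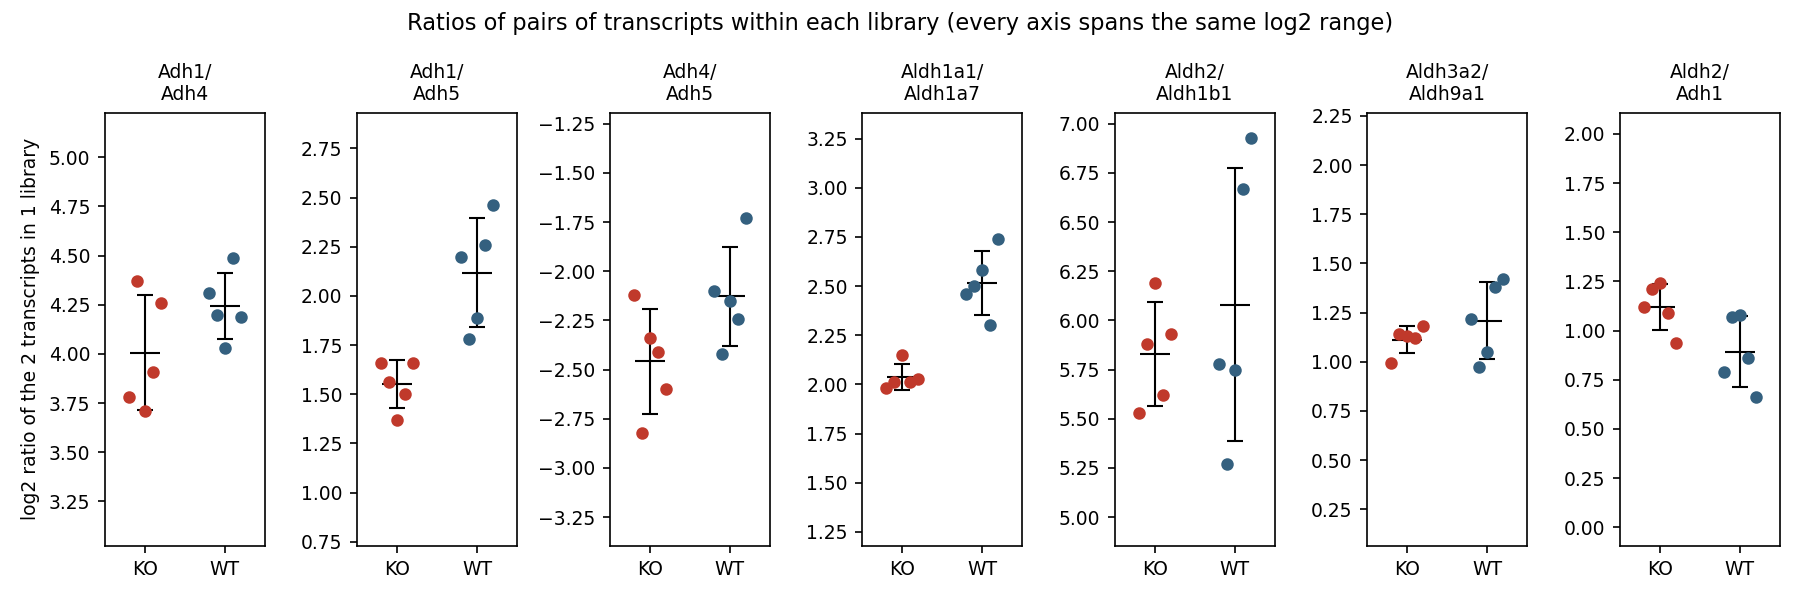
Log2 ratio of the FPKM of 2 transcripts in the same library (y axes, all of the same span), KO (red, left) and WT (blue, right), with the mean ± SD of 5 libraries in black. The genotypes separate for Adh1/Adh5 (1.55 in KO, 2.11 in WT) and Aldh1a1/Aldh1a7 (2.04 in KO, 2.52 in WT), and overlap for the other 5 ratios.

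Adh1 shares a chromosome with the targeted gene. The Adh genes form a cluster on chromosome 3 that begins 7.58 Mb beyond the end of Etnppl (mm10, chromosome 3 from 130617448 to 130637521), with Adh1 from 138260991 to 138290698, Adh4 from 138415466 to 138430892 and Adh5 from 138443093 to 138455499, all on the plus strand. Around a targeted gene, DNA of the strain used for targeting can remain, and at this distance its effect and that of losing Etnppl cannot be told apart. Of 34 tested genes between Etnppl and Adh1, 5 were called, 2 higher and 3 lower, a share of 14.7%. Of 15 tested within 1 Mb of Adh1 other than Adh1 itself, 1 was called (6.67%). It was 0610031O16Rik, which fell by 0.80 on the log2 scale (limma adjusted p = 6.1e-04) and stayed called whichever library was left out. That gene runs on the minus strand across Adh7, the class IV alcohol dehydrogenase, and without a stated strand setting their reads cannot be told apart. Adh7 measured 1.20 FPKM in KO and 1.80 FPKM in WT (log2 difference -0.46, limma adjusted p = 0.18). The other 4 were Cyp2u1 (1.25), Npnt (1.42), Gm6135 (-2.13) and Manba (-0.41); Gm6135 lost its call without KO 3, KO 4, WT 1, WT 2, WT 4 or WT 5 (limma adjusted p up to 0.073) and Manba without KO 2, KO 3, KO 4, KO 5, WT 1, WT 2 or WT 5 (up to 0.078). Adh6a was listed at 0 in all libraries, and Adh6b averaged 0.044 FPKM in KO and 0.020 FPKM in WT.

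**Figure D3:**
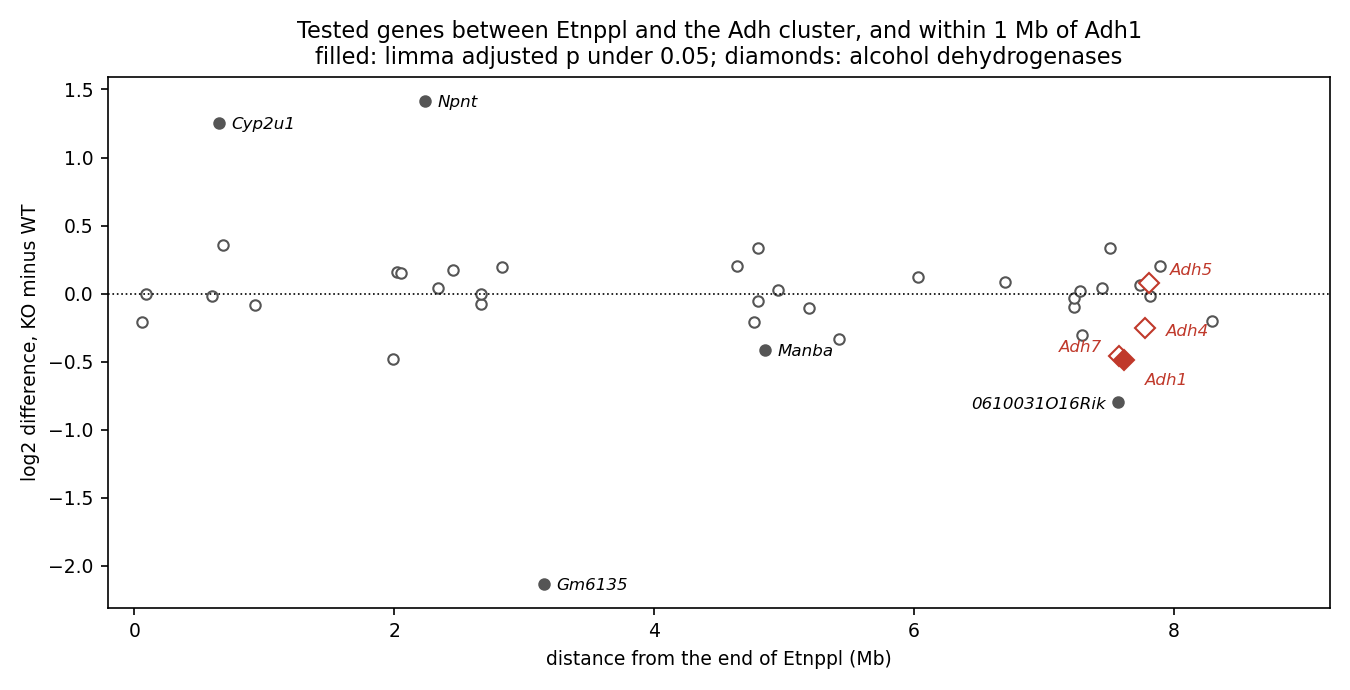
Log2 difference, KO minus WT, of each tested gene between Etnppl and Adh1 or within 1 Mb of Adh1 (y axis) against its distance from the end of Etnppl in Mb (x axis), with alcohol dehydrogenases as red diamonds and called genes filled. Adh1 (-0.49) is the called diamond, and Adh4 (-0.25), Adh5 (0.08) and Adh7 (-0.46) are open.

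Aldh2, the mitochondrial dehydrogenase that clears most acetaldehyde and the most abundant transcript described here, fell in KO. It measured 1185.61, 1110.6, 1039.53, 1051.29 and 1052.61 FPKM in KO 1 to 5, against 1237.98, 1317.42, 1306.3, 1303.97 and 1346.22 FPKM in WT 1 to 5. No KO library reached the lowest WT library, and KO 1 came nearest, 52.4 FPKM below WT 1. The mean was 1088 ± 61.2 FPKM in KO and 1302 ± 39.7 FPKM in WT (SD, n = 5 each), so that KO held 83.5% of the WT level. This was a log2 difference of -0.26 with an SE of 0.05 (limma adjusted p = 0.011), and the call held whichever library was left out, with adjusted p up to 0.033. The gene lies on the minus strand of chromosome 5 from 121566027 to 121593824, away from Etnppl.

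The Aldh2 to Adh1 ratio was 1.12 ± 0.12 in KO and 0.89 ± 0.18 in WT on the log2 scale (SD, n = 5 each). The difference of 0.23 did not pass after adjustment (exact permutation test, p = 0.040, adjusted over the 7 ratios 0.093), except without KO 5, where it was 0.27 (adjusted p = 0.037). The falls of both transcripts were therefore not shown to differ in size.

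Aldh1b1, a second mitochondrial aldehyde dehydrogenase that takes acetaldehyde and retinaldehyde, was the most variable tested member. It measured 13.75 to 25.13 FPKM in KO and 10.55 to 33.72 FPKM in WT, where the highest library was 3.20 times the lowest. Its log2 difference was -0.01, and the 95% limma interval from -0.67 to 0.65 (adjusted p = 0.99) holds changes larger than those of the called members. The Aldh2 to Aldh1b1 ratio did not pass (difference -0.25, exact p = 0.46, adjusted 0.46). Aldh2 made up 51.4 ± 1.61% of the summed FPKM of the 6 aldehyde dehydrogenases in KO and 54.7 ± 2.41% in WT (SD, n = 5 each).

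Aldh1a7, a cytosolic dehydrogenase of rodents, rose in KO. It measured 119.39, 95.98, 107.79, 97.89 and 105.49 FPKM in KO 1 to 5, against 85.5, 67.29, 83.72, 78.59 and 72.79 FPKM in WT 1 to 5. All KO libraries lay above all WT libraries, with 10.5 FPKM between the nearest of them. The mean was 105 ± 9.31 FPKM in KO and 77.6 ± 7.59 FPKM in WT (SD, n = 5 each), and the KO level was 136% of the WT level. On the log2 scale it rose by 0.44 with an SE of 0.08 (limma adjusted p = 0.0075), and the call held whichever library was left out, with adjusted p up to 0.023.

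Aldh1a1, its neighbour and the main retinaldehyde dehydrogenase of adult liver, did not pass the test. It measured 472.81, 388.96, 481.23, 396.14 and 433.16 FPKM in KO 1 to 5, against 473.25, 382.82, 504.82, 390.27 and 490.6 FPKM in WT 1 to 5. The genotypes overlapped almost fully, and the log2 difference was -0.04 (95% limma interval -0.25 to 0.17, adjusted p = 0.83). Aldh1a1 was lowest in replicates 2 and 4 of both genotypes.

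The difference between both genes was tested within libraries. The Aldh1a1 to Aldh1a7 ratio was 2.04 ± 0.07 in KO and 2.52 ± 0.16 in WT on the log2 scale (SD, n = 5 each), a difference of -0.48 with no overlap (exact permutation test, two-sided, p = 0.0079, adjusted over the 7 ratios 0.028). Aldh1a7 made up 19.5 ± 0.73% of the summed FPKM of both genes in KO and 14.8 ± 1.43% in WT (SD, n = 5 each), while the sum itself was 540 ± 50.7 FPKM in KO and 526 ± 62.1 FPKM in WT. Leaving out 1 library raised the adjusted p of the ratio to 0.056, or to 0.037 without KO 5, for the reasons given above. Its difference then ranged from -0.53 to -0.42. Of the 75-base windows of the main Aldh1a1 transcript, 2.53% occurred unchanged in that of Aldh1a7. How the authors' counting split reads that fit both genes is not given in the sources used here, so the split is uncertain.

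**Figure D4:**
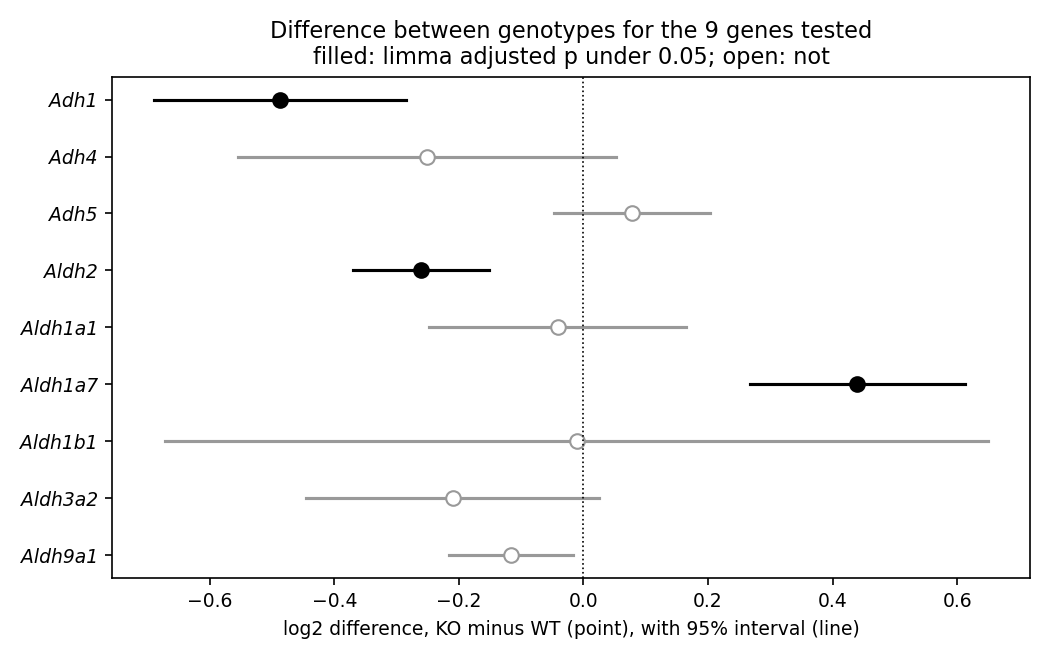
Log2 difference, KO minus WT (x axis), with its 95% limma interval for the 9 genes tested (y axis), filled where the adjusted p was under 0.05. Adh1 (-0.49) and Aldh2 (-0.26) are filled below 0, Aldh1a7 (0.44) is filled above 0, and the widest interval is that of Aldh1b1.

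Aldh3a2 and Aldh9a1 act on aldehydes other than acetaldehyde. Aldh3a2, the fatty aldehyde dehydrogenase, which also oxidises the aldehyde released when sphingosine-1-phosphate is split, measured 290.26 to 338.06 FPKM in KO and 302.31 to 454.41 FPKM in WT. Its log2 difference was -0.21 (95% limma interval -0.45 to 0.03, adjusted p = 0.26). All KO libraries lay near the 2 lowest WT libraries, and the coefficient of variation was 5.78% in KO and 17.7% in WT.

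Aldh9a1, which makes the carnitine precursor gamma-butyrobetaine, measured 145.43, 153.07, 147.54, 147.34 and 146.08 FPKM in KO 1 to 5, against 166.5, 153.62, 151.36, 161.46 and 169.09 FPKM in WT 1 to 5. All KO libraries but KO 2 lay below every WT library. The log2 difference of -0.12 (SE 0.05) passed without adjustment (exact permutation p = 0.016, limma p = 0.026) and not with it (limma adjusted p = 0.14). The Aldh3a2 to Aldh9a1 ratio did not pass (difference -0.09, exact p = 0.36, adjusted 0.42).

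Acss1, the mitochondrial enzyme that turns acetate into acetyl-CoA, was close to the bottom of the measured range. It was listed at 0.03, 0.53, 0.09, 0.1 and 0.22 FPKM in KO 1 to 5, against 0.2, 0.1, 0.14, 0.12 and 0.03 FPKM in WT 1 to 5. The genotypes overlapped, and no direction can be read at this level.

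Per length, the order of levels was the same in both genotypes. It ran Aldh2, Adh1, Aldh1a1, Aldh3a2, Adh5, Aldh9a1, Aldh1a7, Adh4, Aldh1b1 and Acss1, with means in KO from 1088 FPKM for Aldh2 down to 0.194 FPKM for Acss1. Neighbours whose ranges overlapped were Adh1 with Aldh1a1 and Adh4 with Aldh1b1 in KO, and Aldh1a1 with Aldh3a2, Adh5 with Aldh9a1 and Adh4 with Aldh1b1 in WT. Adh1 and Aldh1a1 thus overlapped in KO and not in WT, where Adh1 was the higher. The 10 members together summed to 2819 ± 106 FPKM in KO and 3290 ± 184 FPKM in WT (SD, n = 5 each), out of 714369 to 742461 FPKM over all genes in KO and 693803 to 737794 FPKM in WT.

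Other routes of alcohol oxidation were not called. Of 8 genes, 6 were tested and none passed limma's adjusted threshold, with 2 at an unadjusted p under 0.05 (Adh7 and Akr1a1) and a median log2 difference of -0.08. In the fit of all genes, an unadjusted limma p of 0.050 went with an adjusted p of 0.20, so many genes pass unadjusted. Counts at an unadjusted p, here and below, were not compared with their share over all genes. For called genes those shares were 3.98% higher and 4.56% lower in KO. Cyp2e1, the ethanol-oxidising cytochrome P450, measured 5066 ± 58.0 FPKM in KO and 5345 ± 243 FPKM in WT (SD, n = 5 each, log2 difference -0.08, adjusted p = 0.34). Akr1a1, an aldehyde reductase, was at 178 FPKM in KO and 194 FPKM in WT (-0.12, adjusted p = 0.16).

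Of 15 further aldehyde dehydrogenases, 9 were tested, 1 fell and none rose (median -0.12). The exception was Aldh3b3, a lipid-aldehyde dehydrogenase at the edge of detection, with 0.04 to 0.39 FPKM in KO and 0.49 to 1.1 FPKM in WT (log2 difference -0.85, limma adjusted p = 0.012, and -1.55 to -0.56 over the alternatives). It passed the minimum level through its WT libraries. Aldh6a1, of valine breakdown (-0.16), and Aldh5a1, of GABA breakdown (-0.14), did not pass (adjusted p = 0.14 and 0.18).

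Among 10 other genes of aldehyde clearance, 8 were tested, 3 fell and none rose (median -0.18). Glo1 and Hagh, the enzymes that act in turn to detoxify methylglyoxal, both fell. Glo1 measured 97.8 ± 5.16 FPKM in KO and 138 ± 19.3 FPKM in WT (SD, n = 5 each, log2 difference -0.48, limma adjusted p = 0.0084), and Hagh 124 ± 8.66 FPKM in KO and 165 ± 15.98 FPKM in WT (-0.41, adjusted p = 0.0072). The genotypes did not overlap for either, and both stayed called whichever library was left out. Dhrs4, a carbonyl and retinal reductase, fell by 0.34 on the log2 scale (limma adjusted p = 0.022), but not without KO 4 or KO 5 (up to 0.055).

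On the acetate and acetyl-CoA side, 9 of 9 genes were tested, 1 rose, 1 fell and 7 did not pass (median -0.02). Acot12, a cytosolic hydrolase that releases acetate from acetyl-CoA, rose to 98.8 ± 3.18 FPKM in KO, against 83.7 ± 3.08 FPKM in WT (SD, n = 5 each, log2 difference 0.24, limma adjusted p = 0.0093). Acat1, the mitochondrial acetoacetyl-CoA thiolase, fell by 0.36 on the log2 scale (limma adjusted p = 0.026), but not without KO 1, KO 2, KO 4 or WT 5 (up to 0.062) or with no minimum level (0.052). Acat2, the cytosolic thiolase, was at -0.20 (adjusted p = 0.093).

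Retinoid handling genes moved in both directions. Of 18 tested, 3 rose, 3 fell and 12 did not pass, with a median of -0.09. Retsat, which saturates retinol, fell to 425 ± 26.8 FPKM in KO, against 650 ± 116 FPKM in WT (SD, n = 5 each, log2 difference -0.60, limma adjusted p = 0.0068), and Dhrs3, a retinal reductase, fell by 0.33 on the log2 scale (adjusted p = 0.014). The retinol dehydrogenases Rdh16 (0.47, adjusted p = 0.0045) and Rdh14 (0.29, adjusted p = 0.0065) rose. These 4 stayed called whichever library was left out. The other called genes did not. Rdh7 (-0.19) lost its call without KO 2, KO 4, KO 5, WT 1, WT 4 or WT 5 (limma adjusted p up to 0.063) and after quantile normalization (-0.12, adjusted p = 0.17). Rbp4 (0.18), the plasma retinol carrier, lost it without any library but WT 2 or WT 3 (up to 0.11), and was at 0.01 after quantile normalization (adjusted p = 0.93).

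Of 5 tested genes of carnitine synthesis and uptake, Shmt1, a serine hydroxymethyltransferase, fell by 0.29 on the log2 scale (limma adjusted p = 0.042), and Shmt2 (-0.08) and Slc22a5 (-0.14) were among the 4 that did not pass. The call of Shmt1 was lost without KO 2, KO 3, KO 4, KO 5, WT 1, WT 2 or WT 5 (up to 0.090), with no minimum level (0.078) and after quantile normalization (0.051). None of 12 transcription factors listed for their part in transcribing such enzymes was called by limma, and their median was 0.02. At an unadjusted p under 0.05 there were 4, a count not compared with the share over all genes. Hnf4a was at -0.30, Dbp at 0.62 and Hif1a at 0.20 (adjusted p = 0.12, 0.074 and 0.11).

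**Figure D5:**
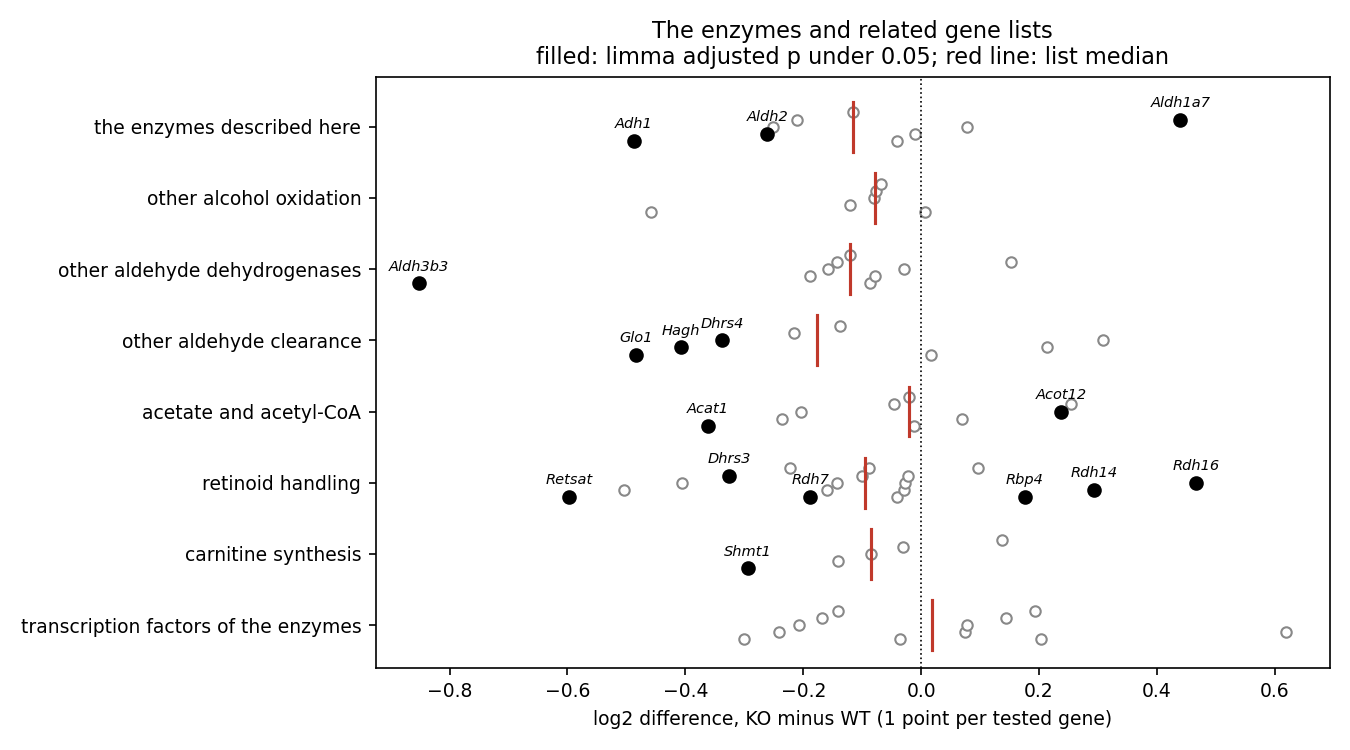
Log2 difference, KO minus WT (x axis), of each tested gene in the enzymes described here and in 7 related lists (y axis), filled and named where the limma adjusted p was under 0.05, with the list median in red. Glo1 (-0.48) and Hagh (-0.41) lie beside Adh1 (-0.49), and the retinoid genes spread from Retsat (-0.60) to Rdh16 (0.47).

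Markers of other cells were read beside these results. As a scale for the counts of called markers, 4.56% of all tested genes were called lower and 3.98% higher in KO. Of 10 Kupffer cell markers, 5 fell and none rose (Clec4f, Vsig4, C1qa, Csf1r and Folr2), with sums of 169.9 to 246.3 FPKM in KO and 248.3 to 291.2 FPKM in WT. Csf1r lost its call without KO 1, KO 2, KO 5, WT 1, WT 2 or WT 3 (limma adjusted p up to 0.069). Folr2 lost it without any library but KO 1, KO 3 or WT 5 (up to 0.082). At an unadjusted limma p under 0.05, 8 of the 10 passed, but Marco among them was higher in KO (log2 difference 0.75, adjusted p = 0.19). Cd5l (-0.22) and Timd4 (-0.12) did not pass even without adjustment. Limma called none of 8 endothelial markers of the sinusoids (4 passed at an unadjusted p under 0.05, with sums of 185.6 to 209.4 FPKM in KO and 204.5 to 214.3 FPKM in WT). Of 9 stellate cell markers only Reln fell (sums of 111.4 to 131.4 FPKM in KO and 121.7 to 158.5 FPKM in WT), and of 5 tested cholangiocyte markers only Sox9 fell (sums of 20.4 to 27.6 FPKM in KO and 24.5 to 29.3 FPKM in WT); Reln lost its call without any library but WT 3 (up to 0.11) and Sox9 without any but KO 1 or WT 5 (up to 0.078). Nor did it call any of 5 tested lymphocyte markers (1 passed at an unadjusted p under 0.05, with sums of 6.49 to 9.92 FPKM in KO and 6.76 to 9.4 FPKM in WT). Among the hepatocyte markers Cps1, of the urea cycle, rose (0.58) and so did Apoa2 (0.26). Apoa2 lost its call without KO 4 (limma adjusted p = 0.051) and after quantile normalization (0.12, adjusted p = 0.26). The other 6 did not pass. Of those, Fgb and Serpina1c were lower in KO at an unadjusted limma p under 0.05 (both -0.22, adjusted p = 0.083 and 0.11). Most of the summed FPKM of these markers, given above, was Alb. No marker was at 0 in all libraries. The part of cell makeup in the changes of the enzymes was not tested.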

How the data were processed

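Values were the FPKM the authors deposited, per gene and library, rounded to 2 decimals. The submitters' processing notes list STAR, RSEM, R 4.0.2, DESeq, DESeq2 and mm10 but not what each was used for. Second strands were made with a directional kit, per the labels' protocols; whether counting used strand is not given in the sources used here. Since FPKM scales to a library's total, abundant transcripts that rise pull the others down.

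FPKM is not a count, so limma 3.58.1 (R 4.3.3; genotype alone in the model, robust eBayes with a trend) tested log2(FPKM + 0.5) where the mean over all libraries reached 0.5 FPKM, with Benjamini-Hochberg adjustment over 12247 genes and a threshold of 0.05. Ratios of members within a library were compared with exact permutation tests (scipy 1.17.1). Nothing in the labels ties each library to its own animal, and p-values then cover only the spread between libraries, which may be technical.

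Positions and transcripts came from GENCODE M21 and start regions from RefSeq, both on GRCm38, the assembly of mm10. Sequences were aligned with Biopython 1.88. One gene of the retinoid list is not reported here. The members and lists were chosen with earlier results of these data known. All members are named, with every called gene and the 3 smallest p of each list, and markers mostly by counts. Alternatives were other pseudocounts and filters, 4 scalings, a non-robust fit, weighting of libraries, a replicate block, and each library left out.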

Additional observations from a re-analysis of the deposited data

Results flagged for a closer look

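Groups of 5 libraries were searched for a library far from the other 4, in the enzymes, Etnppl and the list genes that the naming rule gives. There were 3 among 110 groups, where about 1 in 20 (5.5) would arise by chance. Aldh9a1 was at 153.07 FPKM in KO 2, against 145.43 to 147.54 FPKM in the other KO libraries. Acot12 was at 89.01 FPKM in WT 3, against 81.66 to 83.74 FPKM in the other WT libraries. Dbp, a clock-driven transcription factor, was at 4.18 FPKM in KO 4, against 2.08 to 2.33 FPKM in the other KO libraries.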

How the results depend on the processing

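Adh1 and Aldh1a7 kept their direction and call under all 21 alternatives, with log2 differences of -0.53 to -0.42 and 0.39 to 0.48, and so did Etnppl. Aldh2 did so under 20 (-0.29 to -0.24); with the replicate block it was -0.26 (limma adjusted p = 0.053). None of the other tested members was called under any. Aldh1b1 changed sign with library weights (0.05) and under quantile (0.01), median-of-ratios (0.01) and upper-quartile (0.00) scaling, and without 1 library ranged from -0.21 to 0.20; Aldh1a1 ranged from -0.10 to 0.00. Calls numbered 488 higher and 558 lower. Without the minimum level, which raised the genes tested to 21111, they numbered 294 and 370, and with the replicate block 230 and 321. The share of calls that were higher was 46.7% as deposited, 56.1% (612 and 479) after quantile, 53.6% (578 and 500) after median-of-ratios and 50.9% (542 and 522) after upper-quartile scaling, and 33.6% (349 and 691) with every library scaled to a common FPKM sum, an alternative chosen after seeing the data, where the median of all genes was -0.05. Without 1 library, which leaves fewer samples, 259 to 456 genes were higher and 317 to 544 lower, lowest without KO 5. With the replicate block, an exact sign-flip test of 5 pairs, the Adh1/Adh5 (-0.57) and Aldh1a1/Aldh1a7 (-0.48) ratios had an adjusted p of 0.109, as 5 pairs give no p under 0.0625. Without 1 library these ratios ranged from -0.65 to -0.48 and from -0.53 to -0.42, and Aldh2/Adh1 from 0.17 to 0.27. The block also ended the calls of Dhrs4, Acat1, Rdh7, Rbp4, Shmt1, Reln and Sox9 (limma adjusted p = 0.053 to 0.099). With no minimum level, Rbp4, Csf1r, Folr2, Reln, Sox9, Gm6135 and Manba also lost theirs (0.052 to 0.080). Rbp4 lost its call under upper-quartile scaling, a non-robust fit and a common FPKM sum too (0.054 to 0.088), and Reln under median-of-ratios and quantile scaling and a common FPKM sum (0.051 to 0.057). Same-numbered libraries correlated from -0.207 to 0.208 across genes, with 2 of 5 pairs above 0.1. The labels do not say that the numbers pair libraries, and the correlations did not show it in every pair.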

Other observations

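Within WT, the same libraries stood apart in several of the enzymes, a pattern noticed after the values were seen. WT 1, WT 4 and WT 5 lay above WT 2 and WT 3 in Adh1 (715.6 to 849.76 against 617.58 to 627.2 FPKM), Aldh3a2 (388.38 to 454.41 against 302.31 to 313.16 FPKM) and Aldh9a1 (161.46 to 169.09 against 151.36 to 153.62 FPKM). They lay below WT 2 and WT 3 in Adh5 (150.21 to 155.31 against 166.81 to 182.77 FPKM), Aldh1b1 (10.55 to 22.1 against 23.8 to 33.72 FPKM) and Etnppl (43.32 to 60.27 against 69.73 to 108.39 FPKM). In each of these genes, Etnppl included, the KO libraries showed a narrower range, but the genes were picked for their split in WT. Among the other members, the KO range was wider in Aldh2 (1039.53 to 1185.61 FPKM, against 1237.98 to 1346.22 FPKM in WT). It was also wider in Adh4 (22.63 to 39.27 against 31.51 to 46.1 FPKM), Aldh1a7 (95.98 to 119.39 against 67.29 to 85.5 FPKM) and Acss1, and narrower in Aldh1a1. The labels give no batch, date or time of harvest for these libraries.

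Likeness to the called members was read as Pearson's r and Spearman's rho over the 10 libraries after each genotype's mean was subtracted, as a description. For each, the 2 genes with the highest r were picked from the 12247 tested. How high r would reach by chance in such a search was not tested. The most alike tested genes were Myo1e (r = 0.948, rho = 0.891) and Sqle (r = 0.934, rho = 0.867) for Adh1, Ppp1r3c (r = 0.963, rho = 0.903) and 4632427E13Rik (r = 0.961, rho = 0.927) for Aldh2, and Wdr92 (r = 0.945, rho = 0.964) and BC002059 (r = 0.943, rho = 0.976) for Aldh1a7. Of these, Sqle (-1.04) and Ppp1r3c (-1.06) fell in KO (limma adjusted p = 0.0074 and 0.027), and the other 4 were not called.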
